A study of Mus musculus with 32 samples.

Results

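The difference between genotypes in the response of cultured smooth muscle cells to POVPC under hypoxia was measured across genes. POVPC is an oxidized phospholipid that forms when low density lipoprotein is oxidized and is found in atherosclerotic lesions. The measurements come from 12 of the 32 mouse libraries of the study, 3 in each of 4 groups, all kept at 1% oxygen: wild type (WT) cells with vehicle, WT cells with POVPC, Oct4 -/- (KO) cells with vehicle and KO cells with POVPC. All were labelled as primary smooth muscle cells of strain C57BL/6, and the design names 1 primary aortic line per genotype, so genotype and cell line cannot be told apart. The libraries are described as triplicates with no statement of separate cultures, so p-values measure a spread between libraries of a group that may be technical. That spread was estimated from all 24 cultured libraries, those in normoxia included. No age of the animals, POVPC dose or treatment time was given in the sources used here. The other 20 libraries are 12 of the same cells in normoxia, used here for comparison, and 8 of arteries with lesions, not used here. For each gene the change with POVPC in WT cells was subtracted from the change with POVPC in KO cells, and this interaction is given on the log2 scale. A positive interaction means a larger rise or a smaller fall in KO cells than in WT cells, and a negative one the reverse.

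Smooth muscle cells carry contractile proteins such as transgelin and alpha-actin, and lose them when they switch to a proliferating or matrix-producing state, a switch that oxidized phospholipids are known to promote in culture. Low oxygen stabilizes the hypoxia-inducible factors (HIF), which switch on genes of angiogenesis, glycolysis and collagen modification. Oct4, encoded by Pou5f1, is a transcription factor of pluripotent cells.

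The 12 libraries held from 8063121 to 29426375 counts. Libraries WT POVPC 1, WT POVPC 2 and KO vehicle 3 stood apart: they held 13663755, 8063121 and 11618385 counts, against at least 20145339 in the other 9. They also held 5.80, 9.24 and 8.07 multimapping alignments per assigned one, against at most 3.14 elsewhere in hypoxia. All 3 enter the interaction with a minus sign, so each main result is also given without them. That fit leaves 1 WT POVPC library (n = 1) and 2 KO vehicle libraries. Its WT POVPC group has no spread of its own and is assumed to vary like the other groups, so its calls and FDRs are weak evidence either way. Their part in the results was not tested beyond these values. In KO vehicle 1, 398 genes had counts that were silent in all other cultured libraries, at most 6 counts each, against 10 to 136 such genes in the others. Pou5f1 had 1 count in KO vehicle 3 and 0 in the other 11 hypoxia libraries, so it could not check the genotype labels. The defining smooth muscle markers were low: Myh11 lay between 0.156 and 0.8 CPM (counts per library of a fixed size), Cnn1 reached at most 0.408 CPM and Myocd at most 0.43 CPM, while Acta2 lay between 15.6 and 39.6 CPM. CPM are scaled for library size and composition but not for gene length, so they compare a gene between libraries and not genes with each other.

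Of 14496 genes tested with edgeR, 1358 (9.37%) had an interaction at a false discovery rate (FDR, Benjamini-Hochberg) under 0.05. Among them 854 (5.89% of genes tested) were higher, so that KO cells stood above WT cells in their response, and 504 (3.48%) were lower. The POVPC response of WT cells reached 3037 genes (21%), of which 1191 rose (8.22%) and 1846 fell (12.7%). That of KO cells reached 588 genes (4.06%), with 285 higher (1.97%) and 303 lower (2.09%). These responses share their libraries with the interaction, so they describe how each interaction arose and are no independent support for it. Of the 854 genes with a higher interaction, 686 fell in WT cells and 112 rose in KO cells, and of the 504 with a lower one, 394 rose in WT cells and 73 fell in KO cells. The WT change was the larger of the pair in 1088 of the 1358 genes, and their median absolute change was 0.48 in WT cells and 0.18 in KO cells on the log2 scale. Only 37 genes both fell in WT cells and rose in KO cells, and 21 did the reverse. A 2-fold minimum on the estimated interaction, applied to these calls, left 296 genes. The test itself stayed one against no difference.

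Without the 3 libraries that stood apart, with WT POVPC 3 as the only WT POVPC library and the spread taken from the other groups, 426 genes were called, 221 higher and 205 lower. Of the 1357 called genes that could still be tested, 1355 kept their direction and 385 were called again, and the median absolute interaction went from 0.62 to 0.51. The same fit called 1073 genes for the WT response, in which 1 POVPC library is set against 3 vehicle libraries, and 440 for the KO response. With the log2 ratio of multimapping to assigned alignments as a covariate, chosen after seeing the data, 1207 genes were called. All 1358 kept their direction, but only 835 of them were called again, and their median absolute interaction went from 0.62 to 0.54. The share of higher calls depended on scaling. It was 62.9% with the TMM factors used here, 53.8% with relative log expression factors, 52.1% with DESeq2 and 80.6% with library size alone, which moved the median over all genes from 0.03 to 0.13. The excess of higher over lower calls is therefore not given as a result.

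**Figure D1:**
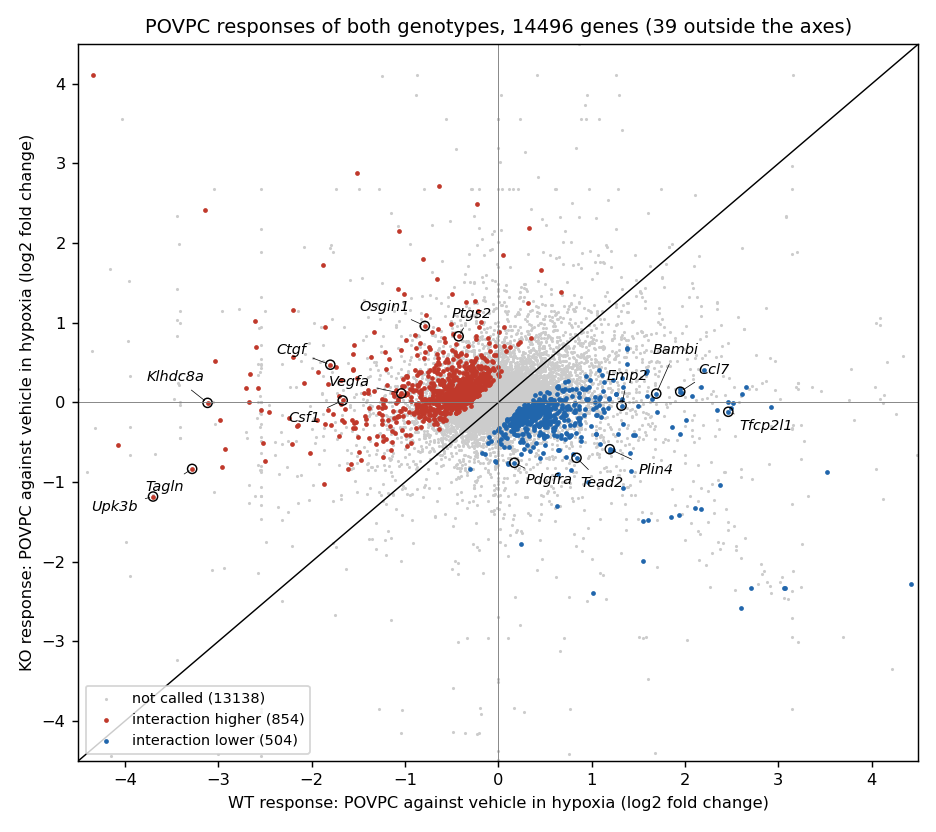
Each point is 1 of 14496 genes, with its log2 change with POVPC in WT cells on the horizontal axis and in KO cells on the vertical axis, both in hypoxia, and 39 genes lie outside the axes. The 854 genes with a higher interaction (red) lie above the diagonal of equal responses and the 504 with a lower one (blue) below it, most of them spread along the WT axis and near 0 on the KO axis.

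Vegfa, which encodes a main angiogenic growth factor and is a classical HIF target, fell with POVPC in WT cells, with no called change in KO cells. Its level was 482, 418 and 465 CPM in the 3 WT vehicle libraries and 221, 194 and 248 CPM with POVPC. In KO cells it was 145, 142 and 136 CPM with vehicle and 161, 148 and 149 CPM with POVPC. The WT groups were far apart, while the KO groups lay close together and both below the lowest WT library. On the log2 scale Vegfa fell by 1.04 in WT cells, and the KO change of 0.11 did not pass (edgeR, FDR 0.49). The interaction was 1.15 ± 0.11 (standard error; edgeR, FDR 7.14e-08), and 0.96 without the 3 libraries. Vegfa is annotated at chr17:46153943-46169326 on the minus strand of mm9, and its counts cover all its exons.

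Of 23 tested HIF targets outside glycolysis, 12 had a higher interaction and 0 a lower one by edgeR, with a median of 0.52 against 0.03 over all genes. At an unadjusted p under 0.05 there were 15 and 1, and by DESeq2 12 and 1. In WT cells 10 of the 23 fell and 0 rose, and in KO cells 4 rose and 0 fell. Over all genes tested the interaction was higher in 5.89% and lower in 3.48%. In WT cells 12.7% fell and 8.22% rose, and in KO cells 1.97% rose and 2.09% fell. Counts of the other lists below are to be read against the same shares. Without the 3 libraries 4 of the 23 were called (median 0.40), and with the multimapping covariate 12. The called genes include enzymes that oxidize and modify collagen in the endoplasmic reticulum and the oxygen sensors Egln1 and Egln3.

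Ero1l, an oxidase that drives disulfide formation in the endoplasmic reticulum, was at 682, 600 and 701 CPM in WT vehicle libraries and at 369, 337 and 404 CPM with POVPC. In KO cells it was at 243, 224 and 206 CPM with vehicle and at 261, 275 and 266 CPM with POVPC. Neither pair of groups overlapped, and the levels moved down in WT cells and slightly up in KO cells. Its interaction was 1.09 ± 0.11 (edgeR, FDR 1.02e-07; 0.90 without the 3 libraries), although the KO change of 0.26 alone did not pass (FDR 0.054). Ndrg1, a stress-responsive gene, differed through its KO response. It was at 492, 515 and 561 CPM in WT vehicle and 450, 444 and 567 CPM in WT POVPC libraries, which overlapped. In KO cells it rose from 217, 227 and 200 CPM to 360, 386 and 334 CPM, a change of 0.75 (edgeR, FDR 5.5e-06), and the interaction was 0.85 ± 0.12. P4ha2, a subunit of the collagen prolyl hydroxylase, fell by 0.46 in WT cells, from a mean of 483 ± 11.8 (SD, n = 3) to 351 ± 30.1 CPM (edgeR). The interaction of P4ha2 was 0.62 ± 0.10, and 0.44 without the 3 libraries. Plod1, a collagen lysyl hydroxylase, had an interaction of 0.71 with all libraries and of 0.52 without the 3, where it no longer passed (edgeR, FDR 0.056).

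The promoters of Ero1l and P4ha2 are shown because both hold the core letters of the HIF binding motif, ACGTG on either strand, within 250 bases before the start. Sequences are RefSeq's for GRCm38.p6, a different build from the mm9 of the counts, printed 5′ to 3′ on the gene's strand up to the base before the start. The Ero1l stretch is chr14:45318573-45318822 on the minus strand and that of P4ha2 is chr11:54100674-54100923 on the plus strand. Capitals mark the motif, which lies 63 bases before the start of Ero1l and 78 before that of P4ha2.
Ero1l: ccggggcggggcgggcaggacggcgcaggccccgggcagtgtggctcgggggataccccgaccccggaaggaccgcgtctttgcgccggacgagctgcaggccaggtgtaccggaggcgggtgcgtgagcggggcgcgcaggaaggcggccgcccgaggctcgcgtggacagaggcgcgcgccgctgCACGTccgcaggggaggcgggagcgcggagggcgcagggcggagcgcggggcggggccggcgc
P4ha2: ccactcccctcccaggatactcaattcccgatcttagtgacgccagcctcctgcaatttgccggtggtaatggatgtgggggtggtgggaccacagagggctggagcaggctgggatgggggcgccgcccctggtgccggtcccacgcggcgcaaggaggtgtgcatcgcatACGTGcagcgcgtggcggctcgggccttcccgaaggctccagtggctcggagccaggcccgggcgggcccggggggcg
The table held a promoter for 8 of the 12 HIF targets with a higher interaction, and 5 of those 8 contained ACGTG. Over all 27025 promoters listed, 16.6% contained it in the same window, and over the tested genes with a promoter 21.3% did. Among all genes with a higher interaction the share was 19.8% (123 of 622), and among those with a lower one 19.7% (71 of 361). The 5 of 8 come from a list made up of HIF targets, so that share is raised by the choice of list. It does not bear on the interaction, and no share was taken for listed targets without a call. Neither Vegfa, at the first of its 2 listed starts, nor Plod1 contained ACGTG in this window. Other forms of the core, such as GCGTG, were not searched, so these promoters are not shown to lack a HIF motif. A match is a description of the letters and does not show binding.

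Glycolysis genes had smaller interactions. Of 20 tested genes 6 had a higher interaction and 0 a lower one by edgeR (median 0.34), 8 fell in WT cells and 1 rose in KO cells. The 6 were Slc2a1, which encodes the glucose transporter GLUT1, and Hk2, Gpi1, Pfkl, Pfkp and Pfkfb3. The latter encode enzymes of the early steps or a regulator of them. The count of higher ones lay between 5 and 8 with 1 library left out and was 4 with the multimapping covariate. Slc2a1 was at 352, 349 and 370 CPM in WT vehicle and 279, 243 and 318 CPM in WT POVPC libraries, and at 273, 270 and 270 CPM in KO vehicle and 329, 345 and 288 CPM in KO POVPC libraries. Its groups did not overlap within either genotype, and its interaction was 0.59 ± 0.12. Without the 3 libraries 0 of the 20 passed with edgeR, 6 were higher and 0 lower at an unadjusted p under 0.05, and the median was 0.20. The value of Pfkl was then 0.41 in place of 0.75 and that of Gpi1 0.36 in place of 0.63, and neither was called.

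Ligands and receptors of vessel growth split. Of 22 tested, Vegfa, Figf and Hbegf had a higher interaction by edgeR, and Pdgfa, Pdgfc and Pdgfra a lower one. Pdgfc was the 1 of these 6 not called without the 3 libraries (edgeR, FDR 0.3). Figf, which encodes the lymphangiogenic factor VEGF-D, was at 153, 155 and 162 CPM in WT vehicle and 43.8, 48.4 and 52.0 CPM in WT POVPC libraries. In KO cells its levels were 166, 175 and 184 CPM with vehicle and 146, 118 and 126 CPM with POVPC. The vehicle levels of the genotypes were close, and the fall was 1.70 in WT cells and 0.42 in KO cells on the log2 scale, with an interaction of 1.28 ± 0.10 (edgeR, FDR 2.19e-09). Hbegf, an EGF receptor ligand, was at 70.1, 60.9 and 60.5 CPM in WT vehicle and 24.9, 18.3 and 26.2 CPM in WT POVPC libraries. Its KO levels of 10.4 to 14.1 CPM overlapped between treatments and lay below all WT levels, and the interaction was 1.56 ± 0.19. Pdgfa, a ligand that acts on smooth muscle cells and fibroblasts, rose in WT cells from 40.5, 39.7 and 40.7 to 53.4, 59.3 and 62.3 CPM. In KO cells Pdgfa was at 86.4, 76.9 and 89.1 CPM with vehicle and 75.3, 65.3 and 70.9 CPM with POVPC, which did not pass on its own, and its interaction was -0.79 ± 0.12. Pdgfra, its receptor, fell in KO cells from 17.2 ± 1.74 to 10.2 ± 1.24 CPM (SD, n = 3; edgeR) and had an interaction of -0.93 ± 0.17.

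**Figure D2:**
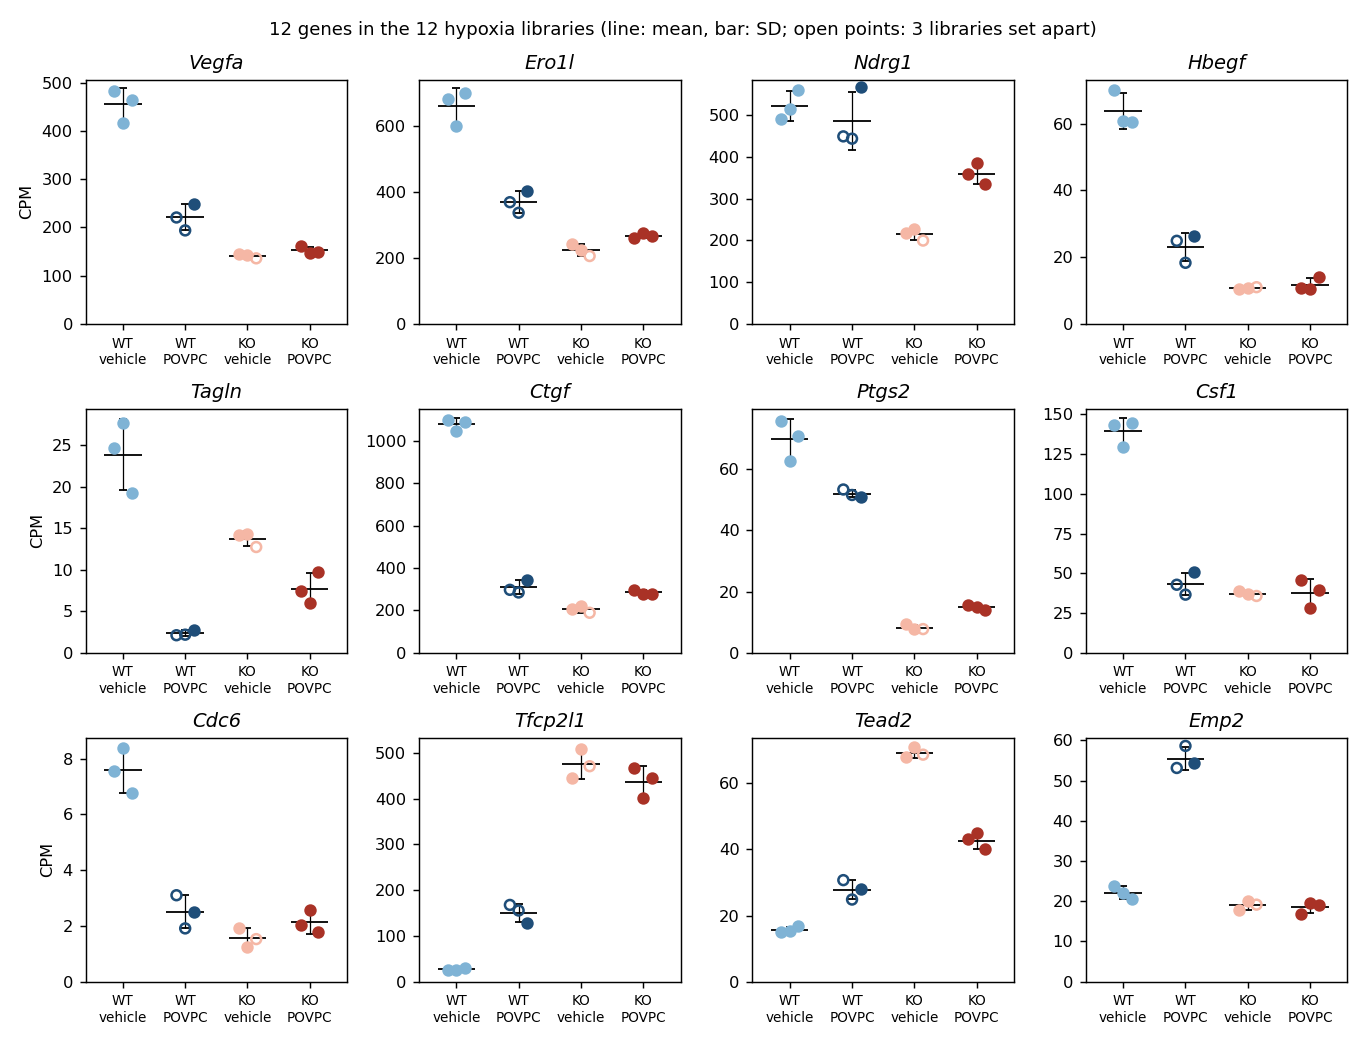
Levels in CPM (vertical axes, from 0) of 12 genes in each hypoxia library, with group means (lines) and SD (bars, n = 3) and open points for WT POVPC 1, WT POVPC 2 and KO vehicle 3. Vegfa, Tagln, Ctgf and Csf1 drop in WT cells with POVPC and move less in KO cells, while Tfcp2l1 and Emp2 rise in WT cells alone and Tead2 moves up in WT and down in KO cells.

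Tagln, which encodes the actin-binding contractile protein transgelin, fell in both genotypes and more in WT cells. It was at 24.7, 27.6 and 19.3 CPM in WT vehicle libraries and at 2.12, 2.19 and 2.77 CPM with POVPC. In KO cells it was at 14.2, 14.3 and 12.7 CPM with vehicle and at 7.47, 6.05 and 9.69 CPM with POVPC. No group overlapped another within a genotype, and the WT POVPC libraries were the lowest of all. The fall was 3.28 in WT cells and 0.83 in KO cells (log2), and the interaction was 2.44 ± 0.25 (edgeR, FDR 1.25e-07; 2.21 without the 3 libraries). Tagln lies at chr9:45737711-45744141 on the minus strand of mm9.

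Of 20 tested contractile genes 4 had a higher interaction and 0 a lower one by edgeR, with a median of 0.23 (0.36 without WT POVPC 3 or KO POVPC 2, and 0.04 with the multimapping covariate). Besides Tagln these were Cald1, Synpo2 and Myl9. Cald1, the actin and calmodulin binding protein caldesmon, was at 241, 184 and 216 CPM in WT vehicle and 89.8, 87.4 and 92.3 CPM in WT POVPC libraries. Its KO libraries overlapped, from 93.4 to 148 CPM, and its interaction was 1.10 ± 0.15 (edgeR, FDR 3.37e-05). Acta2, the smooth muscle alpha-actin, fell by 0.69 in WT cells by edgeR, and its KO change of -0.48 did not pass (FDR 0.194). Its interaction of 0.21 ± 0.28 did not pass either (edgeR, FDR 0.713). Srf, the transcription factor that drives contractile genes, rose by 0.58 in WT cells and 0.64 in KO cells by edgeR, with an interaction of 0.06 ± 0.14. Acta2 and Srf were picked from the list after their values were seen. With the 3 libraries left out 2 of the list were called and its median was 0.05. Synpo2 was then at 1.93 in place of 2.37 and not called (edgeR, FDR 0.077). Myl9 lost its call when any of 9 single libraries was left out, and without WT POVPC 3 its interaction went from 1.70 to 3.03.

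Ctgf, Cyr61 and Ankrd1 are known targets of the transcriptional co-activators YAP and TAZ with their TEAD partners. All of them fell in WT cells, and none fell in KO cells by edgeR. Ctgf, a secreted matricellular protein, was at 1100, 1047 and 1091 CPM in WT vehicle libraries and at 298, 285 and 346 CPM with POVPC. The KO libraries had 206, 221 and 189 CPM with vehicle and 297, 280 and 278 CPM with POVPC. The WT POVPC libraries lay far below the WT vehicle libraries, and the lowest of them lay within the range of the KO POVPC libraries. Ctgf fell by 1.80 in WT cells and rose by 0.47 in KO cells, with an interaction of 2.27 ± 0.15 (edgeR, FDR 3.39e-11; 2.06 without the 3 libraries). Cyr61, of the same protein family, was at 193, 189 and 184 CPM in WT vehicle and 88.6, 86.3 and 114 CPM in WT POVPC libraries, with an interaction of 1.20 ± 0.12. Its KO levels were 157, 161 and 155 CPM with vehicle and 201, 170 and 187 CPM with POVPC, a change of 0.24 that did not pass (edgeR, FDR 0.11). Ankrd1, a stretch-responsive nuclear ankyrin repeat protein, fell from 66.0 ± 1.43 to 40.2 ± 3.54 CPM in WT cells and rose from 94.8 ± 2.32 to 117 ± 14.6 CPM in KO cells (SD, n = 3; edgeR), with an interaction of 1.02 ± 0.12.

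Tead2, which encodes one of the TEAD factors, moved the other way in both genotypes. It was at 14.9, 15.3 and 16.8 CPM in WT vehicle and 30.7, 24.9 and 27.9 CPM in WT POVPC libraries, and at 67.9, 71.0 and 68.7 CPM in KO vehicle and 43.1, 45.0 and 40.0 CPM in KO POVPC libraries. All 4 groups were apart. Tead2 rose by 0.84 in WT cells and fell by 0.70 in KO cells, with an interaction of -1.53 ± 0.11 (edgeR, FDR 9.87e-11; -1.54 without the 3 libraries). The promoters of Cyr61 and Ankrd1 are shown because they hold the TEAD core letters GGAATG on either strand, marked in capitals, 103 bases before the start of Cyr61 and 210 and 123 before that of Ankrd1. They are RefSeq's for GRCm38.p6, chr3:145649986-145650235 and chr19:36119845-36120094, both on the minus strand.
Cyr61: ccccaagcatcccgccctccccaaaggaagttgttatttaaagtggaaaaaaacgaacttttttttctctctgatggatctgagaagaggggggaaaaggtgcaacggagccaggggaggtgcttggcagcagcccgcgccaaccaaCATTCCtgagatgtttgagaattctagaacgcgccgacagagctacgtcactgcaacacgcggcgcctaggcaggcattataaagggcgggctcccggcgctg
Ankrd1: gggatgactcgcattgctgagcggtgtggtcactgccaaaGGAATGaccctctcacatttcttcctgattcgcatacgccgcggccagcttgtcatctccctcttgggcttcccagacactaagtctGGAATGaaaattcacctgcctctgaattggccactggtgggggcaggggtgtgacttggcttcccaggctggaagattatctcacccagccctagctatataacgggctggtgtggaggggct
In the same 250-base window 12.6% of all genes in the table and 11% of tested genes with a promoter held these letters. Of the genes with a higher interaction that had a promoter, 98 of 622 did (15.8%), and of those with a lower one 37 of 361 (10.2%). These shares are a description with no test.

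Of 23 tested genes of the TGF-beta and BMP pathway, 6 had a higher interaction and 2 a lower one by edgeR (median 0.31, but 0.17 without KO vehicle 2, 0.20 without KO POVPC 3 and 0.09 with the multimapping covariate), and 3 and 1 did without the 3 libraries. The lower count was 1 when WT vehicle 2, WT vehicle 3, WT POVPC 1, WT POVPC 2, KO vehicle 2 or KO POVPC 2 was left out. Smad7, the inhibitory SMAD, rose by 0.88 in KO cells against 0.01 in WT cells, with an interaction of 0.88 ± 0.18. Tgfbr1, the type I receptor, rose by 0.60 in WT cells against -0.01 in KO cells, with an interaction of -0.61 ± 0.11. Id2, an inhibitor of differentiation factors, had an interaction of 1.14 ± 0.22, and of 0.70 without the 3 libraries, where it was not called (edgeR, FDR 0.056). Outside that list, Bambi, a decoy receptor that dampens TGF-beta signals, rose in WT cells from 4.69, 4.5 and 3.79 to 15.1, 15.8 and 11.6 CPM. In KO cells it stayed between 26.6 and 33.6 CPM in all 6 libraries, and its interaction was -1.58 ± 0.23 (edgeR, FDR 2.6e-05).

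Immediate early genes are switched on within minutes by growth factors and stress. Of 22 tested, 10 rose and 0 fell with POVPC in KO cells by edgeR, against 6 and 7 in WT cells. For the interaction 9 were higher and 2 lower (median 0.66), and 6 and 0 without the 3 libraries (median 0.52). Egr1, a zinc finger factor, was at 18.5, 21 and 27.4 CPM in WT vehicle and 13.2, 17.2 and 15.2 CPM in WT POVPC libraries, and at 7.38, 8.29 and 8.36 CPM in KO vehicle and 12.2, 14.4 and 13.9 CPM in KO POVPC libraries. The treatments did not overlap in either genotype and moved in opposite directions, and the interaction was 1.33 ± 0.24 (edgeR, FDR 0.000726; 1.33 without the 3 libraries). Dusp1 and Dusp6, phosphatases that switch off MAP kinases, had interactions of 0.83 ± 0.11 and 1.09 ± 0.17. Ier3 and Maff, stress-induced genes, rose by 0.36 and 0.47 in KO cells and fell by 0.37 and 0.28 in WT cells (edgeR). Myc, the growth-promoting factor, had an interaction of 0.94 ± 0.18, and of 0.76 without the 3 libraries, where it was not called (edgeR, FDR 0.0999). The lower ones were Jund and Klf6, which rose in WT cells. Their count was 0 with library size alone and without WT vehicle 3, WT POVPC 1, KO vehicle 1 or KO POVPC 2, and 1 without WT vehicle 1, WT vehicle 2, WT POVPC 2, KO vehicle 2, KO vehicle 3 or KO POVPC 3. By contrast Junb rose by 0.39 in WT cells and 0.40 in KO cells by edgeR, with an interaction of 0.02 ± 0.13, and Jund, Klf6 and Junb were picked after their values were seen.

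**Figure D3:**
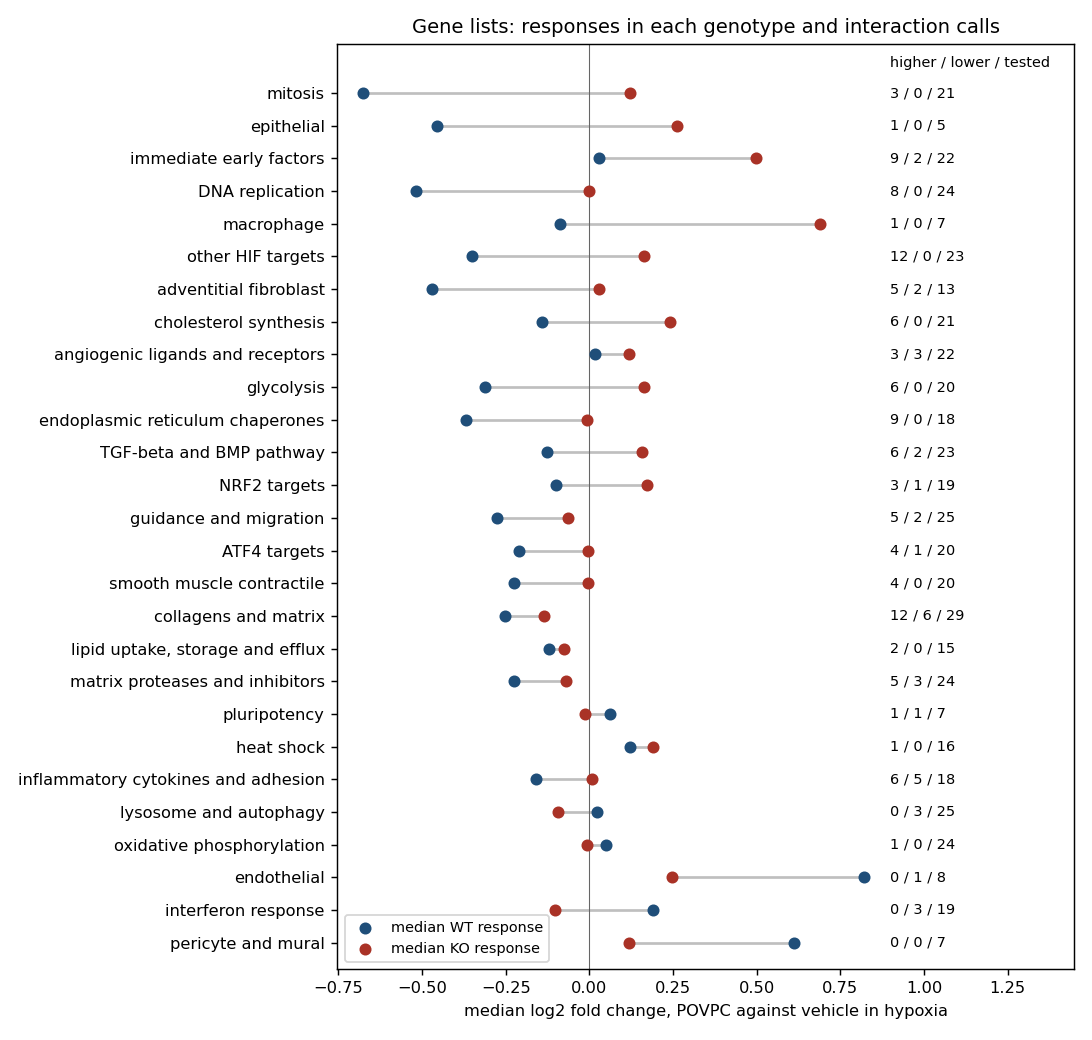
For each of 27 gene lists, the median log2 change with POVPC in hypoxia is shown for WT cells (blue) and KO cells (red), with the counts of tested members whose interaction was higher or lower at an edgeR FDR under 0.05 at the right. In the lists of HIF targets, glycolysis and DNA replication the WT median lies below 0 and below the KO median. For immediate early genes the KO median is 0.50 and the WT median 0.03.

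Among inflammatory genes the directions were mixed, with 6 of 18 higher and 5 lower by edgeR, and 5 and 2 without the 3 libraries. Leaving out KO POVPC 3 took the lower count to 3, as did library size alone. The median of -0.02 lay between -0.19 (without WT POVPC 1) and 0.23 (without WT POVPC 3) and gives no direction. Ptgs2, the inducible cyclooxygenase, fell in WT cells from 75.6, 62.6 and 70.9 to 53.3, 51.5 and 51.0 CPM and rose in KO cells from 9.28, 7.77 and 7.74 to 15.6, 14.9 and 14 CPM. The treatments did not overlap in either genotype, and KO levels were below all WT levels. Its interaction was 1.26 ± 0.15 (edgeR, FDR 2.67e-06; 1.25 without the 3 libraries). Csf1, the macrophage growth factor, was at 144, 130 and 145 CPM in WT vehicle and 42.8, 36.6 and 50.8 CPM in WT POVPC libraries. Its KO levels were 38.6, 37.1 and 35.8 CPM with vehicle and 45.5, 28.5 and 39.4 CPM with POVPC, which overlapped. Csf1 fell by 1.67 in WT cells against a KO change of 0.02, with an interaction of 1.69 ± 0.19 (edgeR, FDR 3.69e-06). Il33, an alarmin cytokine, fell in both genotypes, from 456 ± 52.5 to 112 ± 32.9 CPM in WT cells and from 86.8 ± 8.92 to 55.8 ± 9.70 CPM in KO cells (SD, n = 3; edgeR). Its interaction was 1.38 ± 0.21 with all libraries and 0.88 without the 3, and it was called in both. Tnfaip3, the NF-kappaB inhibitor A20, fell by 0.34 in WT cells and rose by 0.49 in KO cells, with an interaction of 0.83 ± 0.13. Ccl7, a monocyte chemokine, rose in WT cells from 5.29, 5.05 and 4.40 to 15.5, 24.4 and 17.9 CPM. Ccl7 was near the limit of measurement in KO cells, at 0.801 to 2.08 CPM in all 6 libraries, and its interaction was -1.81 ± 0.36 (edgeR, FDR 0.00136).

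Interferon-stimulated genes gave 0 higher and 3 lower of 19 by edgeR (median -0.34), 0 and 1 with library size alone, 2 and 5 at an unadjusted p under 0.05, 0 and 4 by DESeq2, and 0 and 2 without the 3 libraries. Irf9, the DNA-binding subunit that mediates the type I interferon signal, rose in WT cells from 20.9, 18.8 and 20.3 to 26.7, 26.6 and 29.6 CPM. KO cells had 34.8, 35.9 and 35.8 CPM with vehicle and 29.1, 32.6 and 26.8 CPM with POVPC, which did not overlap but did not pass (edgeR, FDR 0.088), and the interaction was -0.74 ± 0.13. Ddx58, the RNA sensor RIG-I, fell by 0.63 in KO cells, and its interaction of -0.46 was not called without the 3 libraries (edgeR, FDR 0.087) or with library size alone (FDR 0.127). Ifit3 lost its interaction call when any of 5 single libraries was left out, among them WT POVPC 1 (edgeR, FDR 0.108), and with library size alone (FDR 0.0659).

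Chaperones of the endoplasmic reticulum were listed together with other genes of protein quality control there, namely Xbp1, Herpud1, Edem1 and Sel1l. Most of this list fell in WT cells. Of 18 tested, 16 fell and 1 rose in WT cells by edgeR, against 1 and 1 in KO cells. The interaction was 0 after rounding for Herpud1 and positive in all others of the 18 (median 0.33). It was called in 9, all higher, with 14 called when WT POVPC 3 was left out. Hspa5, the central chaperone BiP, was at 2823, 2625 and 2545 CPM in WT vehicle and 2102, 1835 and 2112 CPM in WT POVPC libraries. In KO cells Hspa5 was at 992, 1011 and 978 CPM with vehicle and 1059, 999 and 1159 CPM with POVPC, which overlapped, and its interaction was 0.51 ± 0.10. With the 3 libraries left out 0 of the 18 passed with edgeR, 7 were higher at an unadjusted p under 0.05, the median was 0.20, and that of Hspa5 was 0.43 (FDR 0.078). With the multimapping covariate 7 passed.

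Targets of ATF4, the factor of amino acid stress, gave 4 higher and 1 lower of 20 by edgeR (median 0.23), and 0 and 1 without the 3 libraries. The higher count was 7 without WT POVPC 3 and 2 without KO vehicle 3. The higher ones were Trib3, Atf3, Mthfd2 and Slc7a5, of which Mthfd2 lost its call when any of 8 single libraries was left out and Atf3 without KO vehicle 3 or KO POVPC 3, and the lower one was Slc7a11, the cystine transporter, which also responds to the oxidative stress factor NRF2. Slc7a11 rose in WT cells from 117, 91.3 and 111 to 182, 157 and 187 CPM. Its KO levels were 46.9, 41.9 and 47.4 CPM with vehicle and 51.0, 47.4 and 54.8 CPM with POVPC, and the interaction was -0.55 ± 0.12, which was not called with library size alone (edgeR, FDR 0.0945). Of 19 NRF2 targets 3 were higher (Pgd, Me1 and Osgin1) and Slc7a11 was lower (median 0.27). That count was unstable: it was 1 without WT POVPC 1, WT POVPC 2, KO vehicle 2 or KO POVPC 3, and 9 without WT POVPC 3. Me1 lost its call when any of 6 single libraries was left out, and Pgd when any of 8 was. Osgin1, induced by oxidized phospholipids through NRF2, kept its call in every fit that left out 1 hypoxia library. It fell in WT cells from 6.76, 5.71 and 8.06 to 4.62, 4.10 and 3.48 CPM and rose in KO cells from 11.2, 6.86 and 7.03 to 17, 15.3 and 17.4 CPM, with an interaction of 1.75 ± 0.28.

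In cholesterol synthesis and uptake all 21 tested genes had a positive interaction (median 0.42), and 6 were called by edgeR. No count for this list was stable. It was 14 without KO POVPC 2, 3 without WT vehicle 1, WT POVPC 1 or KO vehicle 2, 2 without KO vehicle 3, KO POVPC 1 or KO POVPC 3, and 1 without WT POVPC 2. Without the 3 libraries 0 of the 21 passed and with the multimapping covariate 1 did, by edgeR, and 2 were higher without the 3 at an unadjusted p under 0.05. Dhcr7, the last enzyme of the pathway, had an interaction of 0.93 ± 0.19, and of 0.49 without the 3 libraries. Of 15 genes of lipid uptake, storage and efflux, Abca1 and Pltp were higher by edgeR, against 5.89% of all genes tested. The lipid count was 1 without WT POVPC 2, KO vehicle 3 or KO POVPC 1. Abca1, the cholesterol exporter, fell by 1.47 in WT cells and 0.72 in KO cells, with an interaction of 0.74 that was not called without KO vehicle 3 (edgeR, FDR 0.0539). In the heat shock list Hspb1 alone of 16 was called, against 9.37% of all genes tested. The count was 3 without WT vehicle 2, 2 without WT POVPC 3 and 0 without WT POVPC 2, KO POVPC 2 or KO POVPC 3. Hspb1, a small chaperone, rose in both genotypes, by 0.67 in WT cells and 1.39 in KO cells (edgeR), and its interaction lost its call when any of 6 single libraries was left out. Pltp lost its call without WT POVPC 2 or KO POVPC 1.

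Genes of DNA replication fell in WT cells. Of 24 tested, 14 fell and 0 rose in WT cells by edgeR, against 0 and 1 in KO cells. The interaction was called in 8, all higher (median 0.57), in 4 without the 3 libraries (median 0.46) and in 7 with the covariate. Cdc6, which loads the replicative helicase, was at 7.57, 8.4 and 6.77 CPM in WT vehicle and 3.10, 1.91 and 2.50 CPM in WT POVPC libraries. The KO libraries had 1.94, 1.24 and 1.53 CPM with vehicle and 2.04, 2.58 and 1.78 CPM with POVPC, which overlapped. The interaction of Cdc6 was 1.98 ± 0.30 (edgeR, FDR 7.41e-05; 2.00 without the 3 libraries). Mcm5, a subunit of that helicase, fell in WT cells from 32.3, 30.9 and 31.6 to 16.4, 13.1 and 14.9 CPM. Its KO libraries lay between 15.5 and 21 CPM with overlap, and its interaction was 0.90 ± 0.17. Lig1, the ligase that joins replicated fragments, had an interaction of 1.09 ± 0.19.

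Of 21 mitotic genes, 6 fell in WT cells and 0 rose, and 0 passed in KO cells by edgeR (KO median 0.12). In KO cells 0 were higher and 1 lower at an unadjusted p under 0.05, and 0 passed by DESeq2. The interaction was called in Cdk1, Top2a and Kif23, all higher, the median was 0.82, and 9 were higher at an unadjusted p under 0.05. Cdk1, the kinase that drives mitosis, had an interaction of 1.51 ± 0.36, and of 1.03 without the 3 libraries, where it was not called (edgeR, FDR 0.17). Kif23 lost its call when any of 7 single libraries was left out. Top2a, the mitotic topoisomerase, had an interaction of 0.82 ± 0.18, and of 0.77 without the 3 libraries. With all libraries thinned to the depth of the shallowest it was 0.25 (edgeR, FDR 0.539), so its size changed with that thinning. In these bulk cultures fewer dividing cells and less RNA per cell cannot be told apart.

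Among collagens and matrix proteins 12 of 29 had a higher interaction and 6 a lower one by edgeR, and 5 and 6 without the 3 libraries. The median of 0.19 was 0.02 without KO POVPC 1, 0.29 without WT vehicle 2, 0.32 without KO vehicle 2 and 0.07 with the multimapping covariate. In WT cells 15 of the 29 fell and 7 rose, and in KO cells 6 fell and 1 rose. Col12a1, a collagen that decorates fibrils, fell in WT cells from 80.0, 62.6 and 82.5 to 19.5, 18.3 and 24.8 CPM and lay between 18.1 and 26 CPM in all 6 KO libraries. Its interaction was 1.72 ± 0.24 (edgeR, FDR 4.55e-05). Fbln5, which organizes elastic fibres, fell in WT cells from 254, 235 and 251 to 110, 99.9 and 115 CPM, against 377, 423 and 414 CPM with vehicle and 396, 306 and 337 CPM with POVPC in KO cells. The KO groups overlapped, and the interaction of Fbln5 was 0.96 ± 0.11. Dcn, the proteoglycan decorin, fell in both genotypes, by 1.31 in WT cells and 0.53 in KO cells (edgeR), with an interaction of 0.78 ± 0.12. Col8a1, a collagen of vessel walls, had an interaction of 1.21 ± 0.17. Col11a1, a fibril-forming collagen, showed the reverse. It rose in WT cells from 8.68 ± 0.923 to 12.2 ± 2.71 CPM and fell in KO cells from 24.6 ± 4.12 to 15.2 ± 1.36 CPM (SD, n = 3; edgeR), with an interaction of -1.15 ± 0.19.

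Outside the lists, 3 genes that fell steeply in WT cells are given from among the 15 largest positive interactions. Some with larger values than Lama1 are not described. Lama1, the laminin alpha-1 chain, was at 9.39, 7.25 and 12.3 CPM in WT vehicle and 1.82, 1.64 and 0.704 CPM in WT POVPC libraries, with an interaction of 2.15 ± 0.41 (3.07 without the 3 libraries). Upk3b, a uroplakin also known from mesothelium, went from 26.7, 32.8 and 26.3 to 1.21, 3.01 and 2.50 CPM in WT cells and from 13.2, 15.1 and 13.7 to 7.31, 3.84 and 7.33 CPM in KO cells. It fell in both genotypes, with an interaction of 2.52 ± 0.36 (edgeR, FDR 3.47e-05). Klhdc8a went from 7.22, 5.27 and 6.94 to 0.303, 0.546 and 1.09 CPM in WT cells, while its KO libraries lay between 2.85 and 4.90 CPM. Its interaction was 3.11 ± 0.41 (2.43 without the 3 libraries), and its 2 lowest WT values came from the 2 WT libraries that stood apart.

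Of 24 matrix proteases and inhibitors 5 were higher and 3 lower by edgeR, and the lower count was 1 without WT vehicle 1, WT vehicle 2 or KO POVPC 3. Plat, the tissue plasminogen activator, had an interaction of 0.53 ± 0.09, and Mmp15, a membrane-bound metalloproteinase, one of -0.78 ± 0.17. Timp2 and Timp3, inhibitors of metalloproteinases, fell by 0.73 and 0.74 in WT cells, and their interactions of 0.68 and 0.61 were 0.42 and 0.21 without the 3 libraries, where neither was called (edgeR). Of 25 guidance and migration genes 5 were higher and 2 lower by edgeR, and the lower count was 1 with library size alone and without WT vehicle 1 or KO vehicle 2. Epha2, an ephrin receptor, fell in WT cells from 75.1, 68.0 and 72.9 to 38.8, 32.2 and 44.1 CPM and rose in KO cells from 39.3, 42.4 and 35.7 to 54.1, 52.6 and 49.8 CPM. The treatments did not overlap, and the interaction was 1.30 ± 0.14 (edgeR, FDR 2.71e-07; 1.06 without the 3 libraries). Itgb3, the beta-3 integrin, fell by 1.24 in WT cells against 0.04 in KO cells, with an interaction of 1.28 ± 0.21. Slit2, a guidance ligand, fell by 1.25 in WT cells, and its interaction of 1.03 was 1.00 without the 3 libraries but not called (edgeR, FDR 0.0855).

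Tfcp2l1, a transcription factor known from naive pluripotent stem cells and epithelia, rose with POVPC in WT cells, with no called change in KO cells. It was at 26.2, 25.7 and 29.6 CPM in WT vehicle libraries and at 168, 156 and 128 CPM with POVPC. Its KO levels were 444, 509 and 471 CPM with vehicle and 466, 401 and 444 CPM with POVPC. The WT groups were far apart, the KO groups overlapped, and every KO library lay above every WT library. Tfcp2l1 rose by 2.46 in WT cells against a KO change of -0.12, and its interaction was -2.58 ± 0.15 (edgeR, FDR 3.52e-12; -2.36 without the 3 libraries). It lies at chr1:120524522-120581745 on the plus strand of mm9. Of the 7 tested pluripotency genes it was the 1 with a lower interaction, and Myc the 1 with a higher one, by edgeR. Over all genes tested 3.48% were lower and 5.89% higher, and 7 genes are too few to set against these shares.

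Other genes rose in WT cells with no change called in KO cells. Emp2, a membrane protein of the tetraspan family, was at 23.8, 22 and 20.7 CPM in WT vehicle and 53.1, 58.6 and 54.5 CPM in WT POVPC libraries. It lay between 16.9 and 20.1 CPM in all 6 KO libraries, and its interaction was -1.36 ± 0.11 (edgeR, FDR 9.85e-10; -1.34 without the 3 libraries). Mcpt2, a mast cell protease gene, was at 0.14, 0.11 and 0.406 CPM in WT vehicle and 1.21, 1.64 and 1.64 CPM in WT POVPC libraries, against 8.29 to 12.4 CPM in KO cells. Its WT vehicle values rest on a few counts, and with all libraries thinned to the shallowest its interaction of -2.47 became -1.99 and was not called (edgeR, FDR 0.0835).

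Among the 37 genes that fell in WT cells and rose in KO cells, those with the smallest p included Cdhr1, Epha2, Zfand2a, Gadd45g, Bdnf and Ptgs2. Cdhr1, a cadherin-related protein, went from 75.2, 71.8 and 95.1 to 31.3, 34.7 and 40.6 CPM in WT cells and from 88.0, 80.0 and 70.8 to 112, 123 and 114 CPM in KO cells. The genotypes shared 1 range with vehicle and lay apart with POVPC, and the interaction of Cdhr1 was 1.72 ± 0.19 (edgeR, FDR 1.09e-06). Gadd45g, a stress-induced regulator of growth arrest, went from 43.0, 38.9 and 36.9 to 22.5, 26.8 and 27 CPM in WT cells and from 25.6, 28.4 and 23.6 to 35.2, 34.7 and 39.2 CPM in KO cells. Its interaction was 1.12 ± 0.13. Bdnf, the brain-derived neurotrophic factor, went from 112, 111 and 109 to 73.3, 63.8 and 74.3 CPM in WT cells and from 51.1, 46.7 and 39.7 to 66.5, 55.3 and 63.3 CPM in KO cells. Its interaction was 1.07 ± 0.13, and Zfand2a, a gene induced by proteotoxic stress, had 1.18 ± 0.14.

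The 21 genes with the reverse pattern included Tead2, Tubb2b, Plin4, Ddah2, Thra, Slc7a2, Dbn1 and Ctps2. Tubb2b, a beta-tubulin best known from neurons, went from 5.04, 7.25 and 4.47 to 11, 12.4 and 10.9 CPM in WT cells and from 145, 138 and 138 to 107, 97.3 and 115 CPM in KO cells. Its levels differed far more between the genotypes than between treatments, and its interaction was -1.45 ± 0.16. Plin4, a lipid droplet coat protein, went from 3.85, 2.09 and 3.59 to 5.83, 9.56 and 7.58 CPM in WT cells and from 50.1, 42.2 and 43.6 to 30.3, 34.0 and 26.2 CPM in KO cells, with an interaction of -1.78 ± 0.23. Ddah2, which degrades an inhibitor of nitric oxide synthase, had an interaction of -1.25 ± 0.13 and Thra, a thyroid hormone receptor, one of -0.92 ± 0.12 (edgeR). Without the 3 libraries the values were -1.41 for Tubb2b, -1.83 for Plin4, -1.07 for Ddah2 and -1.12 for Thra.

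**Figure D4:**
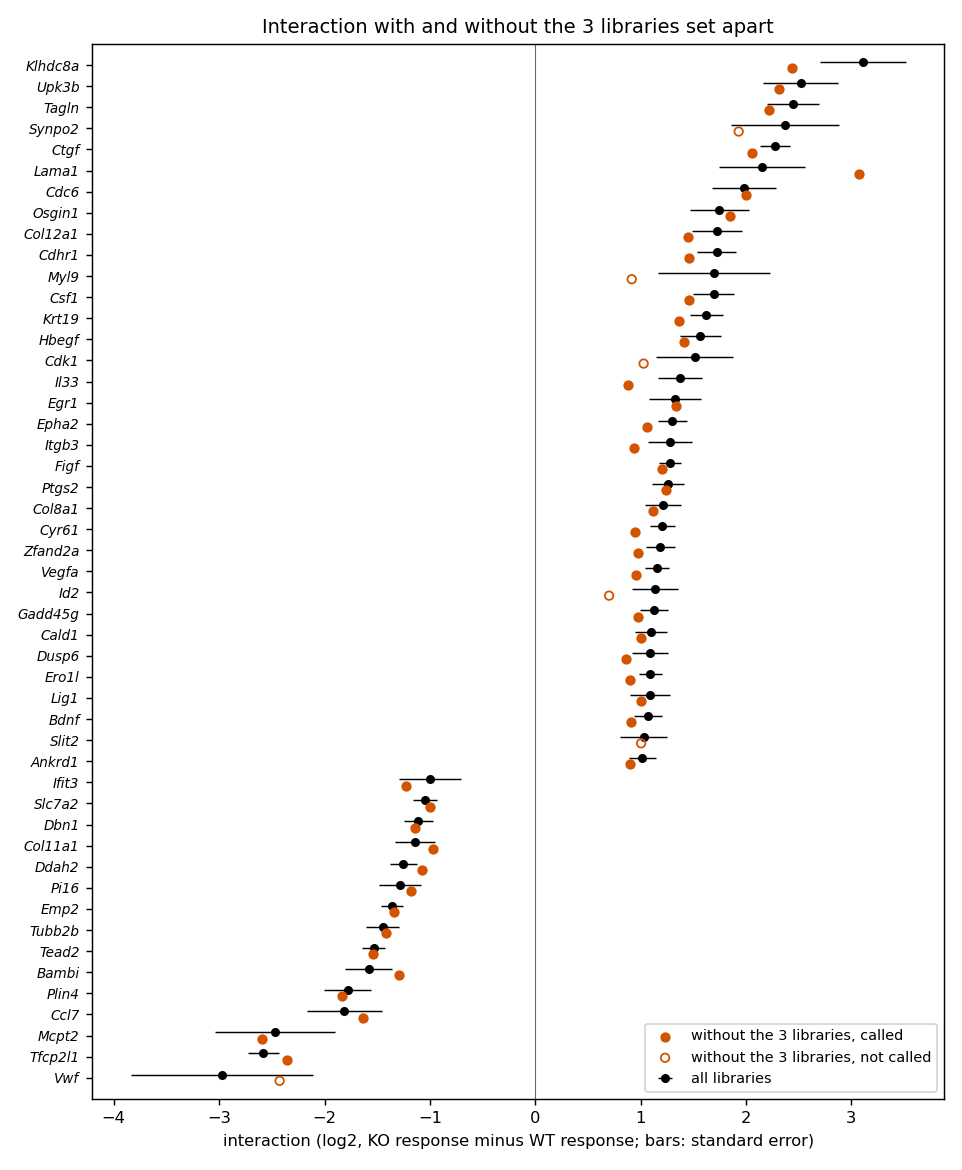
Interaction on the log2 scale (horizontal axis) of the 49 named genes at or above 1 in size, with all libraries (black, bars are standard errors) and without WT POVPC 1, WT POVPC 2 and KO vehicle 3 (orange, filled where called). All 49 keep their sign, and 43 are called and 6 (open) not called without the 3 libraries, in a fit with 1 WT POVPC library whose spread is assumed from the other groups.

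Lysosome and autophagy genes gave 0 higher and 3 lower of 25 by edgeR (0 and 6 at an unadjusted p under 0.05, 0 and 5 by DESeq2, 0 and 1 with library size alone), namely Ctsa, Hexa and Atp6v1a, and the lower count was 5 without WT POVPC 2. Atp6v1a, a proton pump subunit, lost its call when any of 6 single libraries was left out. Ctsa and Hexa, hydrolases of the lysosome, rose by 0.32 and 0.23 in WT cells and fell by 0.26 in KO cells each, with interactions of -0.58 ± 0.10 and -0.49 ± 0.10, of which that of Hexa was not called with library size alone (edgeR, FDR 0.0792). Of 24 subunits of oxidative phosphorylation 1 was called, Sdha with 0.46, which was 0.39 and not called without the 3 libraries (edgeR, FDR 0.12). The share called over all genes tested was 9.37%. The median of the oxidative phosphorylation list was -0.09 with TMM, 0.25 with the multimapping covariate and 0.01 without WT vehicle 3.

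Markers of other cell types moved with some of these results. Krt19, a keratin, fell in WT cells from 538, 667 and 508 to 156, 143 and 203 CPM and lay between 243 and 294 CPM in KO cells, with an interaction of 1.62 ± 0.16 (edgeR, FDR 1.25e-07). It made up nearly all of the summed level of 10 epithelial markers, which was 510 to 669 CPM in WT vehicle, 145 to 205 CPM in WT POVPC, 260 to 307 CPM in KO vehicle and 255 to 271 CPM in KO POVPC libraries. Epcam reached at most 0.165 CPM, and 6 of the 10 stayed under 1 CPM everywhere. The 14 adventitial fibroblast markers summed to 797 to 862 CPM in WT vehicle, 409 to 517 CPM in WT POVPC, 1220 to 1290 CPM in KO vehicle and 986 to 1080 CPM in KO POVPC libraries. Of 13 tested, 5 were higher, Dcn and Col14a1 among them, and 2 lower, namely Pdgfra and Pi16 (edgeR). The higher count was 2 without WT POVPC 1, WT POVPC 2 or KO vehicle 3, and 3 without WT vehicle 2, WT vehicle 3 or KO POVPC 3. The 18 macrophage markers summed to 117 to 169 CPM in WT and 279 to 479 CPM in KO libraries, nearly all from Lgals3 (galectin-3), whereas Trem2 was at 0 throughout and Emr1 reached at most 0.166 CPM. Lgals3 had an interaction of 0.70 that was not called without the 3 libraries (edgeR, FDR 0.163). Endothelial markers summed to 50.7 to 96.1 CPM, nearly all from Eng, with Cldn5 at 0 and Cdh5 at most 0.0904 CPM. Of 8 tested, Vwf alone was called, with a lower interaction, at 0 to 2.42 CPM, and Vwf lost its call when KO vehicle 1 or any of 3 other libraries was left out (edgeR, FDR 0.211 without KO vehicle 1). Of 7 tested pericyte markers 0 were called by edgeR in either direction or by DESeq2, 1 was higher and 2 lower at an unadjusted p under 0.05, and their summed level was 50.9 to 70.2 CPM in WT and 110 to 136 CPM in KO libraries. The part of other cell types in the interactions was not tested.

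The same contrast in normoxia came from 12 other libraries, and the difference between both contrasts was tested. In normoxia 2344 genes (16.2%) had an interaction by edgeR, 1184 higher (8.17%) and 1160 lower (8%). Of the 1358 genes called in hypoxia, 461 were also called in normoxia, which is 33.95% of the hypoxia list and 19.67% of the normoxia list. Of the 461, 226 had the same direction and 235 the opposite one. The interaction differed between oxygen levels in 2000 genes (13.8%), among them 741 of the 1358. That difference contains the hypoxia interaction by which the 1358 were picked. The selection therefore raises the 741, which cannot be set against the share over all genes. Without the 3 hypoxia libraries 1278 genes differed. KO vehicle normoxia 3 stood apart in normoxia, and without it 2157 did.

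Tfcp2l1 had an interaction of -0.03 in normoxia, and the difference between hypoxia and normoxia was -2.55 (edgeR, FDR 7.4e-10). For Vegfa the normoxia value was 0.22 and the difference 0.93 (FDR 0.00011), and for Ero1l -0.18 and 1.27 (edgeR, FDR 9e-07). Tagln had 1.42 in normoxia, and its difference of 1.02 passed narrowly (edgeR, FDR 0.047). Ctgf had 2.21 in normoxia and 2.27 in hypoxia, a difference of 0.06 ± 0.20 that did not pass (edgeR, FDR 0.9). Dusp1, with 0.95 and 0.83, and Ccl7, with -1.90 and -1.81, likewise showed no called difference. Opposite signs with a called difference were found for Ptgs2, at -1.84 in normoxia and 1.26 in hypoxia, and for Ier3, at -1.96 and 0.74. Tead2, at 0.28 and -1.53, Pdgfra, at 1.33 and -0.93, and Thra, at 0.96 and -0.92, had them the other way round. Over all 14496 genes tested, the interaction was higher in hypoxia than in normoxia in 1125 and lower in 875 (edgeR). By list, it was higher in 19 of 24 DNA replication genes and 17 of 21 mitotic genes, and lower in 0, with normoxia medians of -0.80 and -1.39 (edgeR). Of 21 cholesterol genes 19 were higher, with a normoxia median of -0.94, and of 22 immediate early genes 13 were higher and 1 lower. Contractile genes gave 2 higher and 3 lower of 20, with a median of 1.11 in normoxia against 0.23 in hypoxia.

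**Figure D5:**
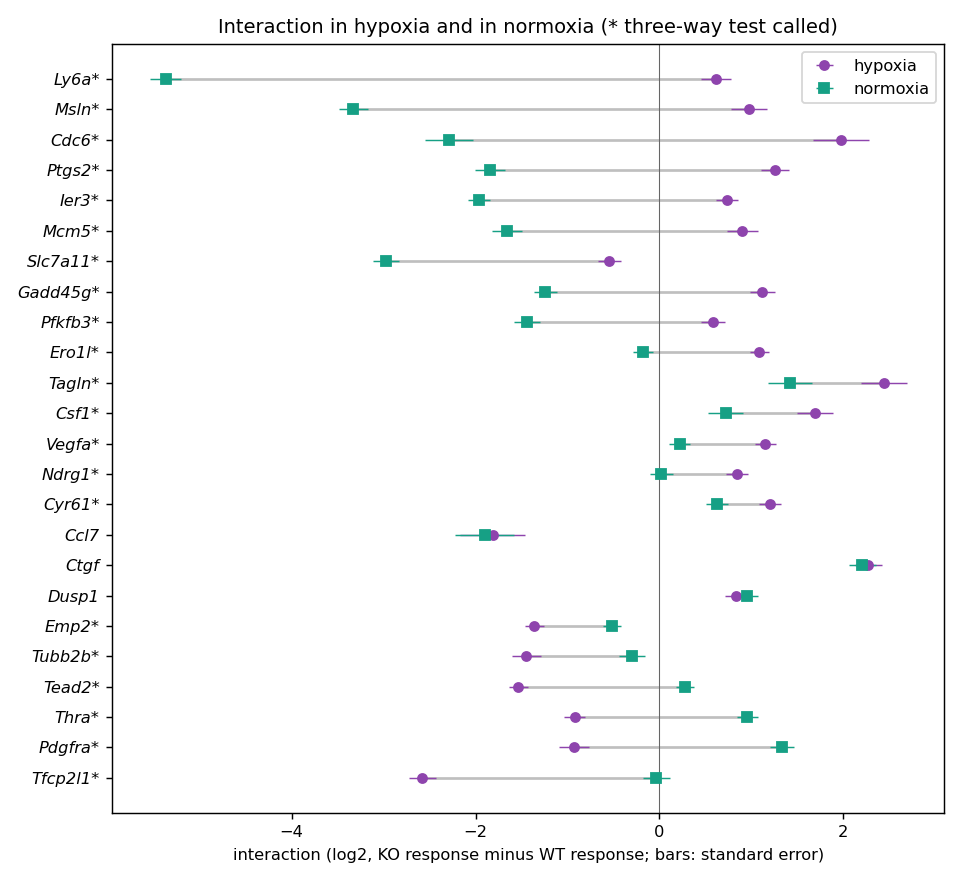
Interaction on the log2 scale (horizontal axis, bars are standard errors) of 24 named genes in hypoxia (circles) and in normoxia (squares), ordered by the difference, with an asterisk on the 21 genes whose difference passed the test. Ly6a, Msln and Ptgs2 lie below 0 in normoxia and above 0 in hypoxia, Ctgf, Dusp1 and Ccl7 lie at nearly the same value, and Tfcp2l1 lies near 0 in normoxia.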

How the data were processed

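The data are gene counts of 24 cultured mouse smooth muscle libraries (8 groups of 3), 12 of them in hypoxia, from 1 table of 23284 genes. Per the file headers, the authors made these raw counts with featureCounts 1.4.4 on UCSC mm9 exons, summed by gene name, with no paired-end and no strand option. Mates were thus counted separately and reads of antisense neighbours cannot be told apart. Even numbers made up 54.5 to 60.3% of counts of 10 to 1000. The submitters' processing notes also name CASAVA, STAR, Subread and DESeq2. The table of arteries with lesions was not used, and 0 columns of other samples were left out.

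Counts as deposited were tested with edgeR 4.0.16 (R 4.3.3): filterByExpr by group (minimum count 10, minimum total 15, 14496 genes kept), TMM scaling, robust quasi-likelihood fits of 24 libraries in 8 groups, 2-sided tests, and Benjamini-Hochberg FDR over all genes tested, called under 0.05. Standard errors were derived from the log2 change and its F statistic. Levels are TMM-scaled CPM. Between hypoxia replicates, counts varied 18.75 to 184.7 times as much as counting alone gives (chi-square per degree of freedom), which mates counted separately inflate. Of 200 simulated interactions, 55.2% at 1.5-fold, 86.6% at 2-fold and 98.5% at 4-fold were recovered, with 7 false calls among 167. These rates describe the simulated counts alone and are not the error rates of the reported calls. They do not cover a distortion shared by the libraries that stood apart, or genes of a few counts.

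Genes were named by a rule: 3 markers, the 15 largest values in each direction with at least 5 CPM in a hypoxia group, 8 of each opposite pattern, up to 5 members of each of 27 lists and 5 genes of the oxygen comparison, of which the text names a subset. Members and lists were chosen with earlier results of these data known. Alternatives were RLE factors, library size alone, DESeq2 1.42.0, no filter and a 5 CPM filter, a replicate block, a fit that was not robust, hypoxia libraries alone, halved counts, a 2-fold minimum, removal of Rn45s and Rpph1, thinning to 8063121 counts, and libraries left out. Added after seeing the data were a multimapping covariate and a fit without KO vehicle normoxia 3. Promoters were matched by symbol, or by the current symbol of a renamed gene. Results for 2 genes are not reported here.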

Additional observations from a re-analysis of the deposited data

Results flagged for a closer look

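The 2 genotypes responded differently to POVPC in hypoxia in 1358 genes, by the edgeR test of the difference itself. In 2000 genes that difference was itself different between hypoxia and normoxia. Among named genes the log2 difference between oxygen levels was 0.93 for Vegfa, -2.55 for Tfcp2l1 and 1.02 for Tagln. The 5 genes with the smallest p for it were Ly6a (5.99), Msln (4.30), Anxa8 (3.81), Ier3 (2.70) and Shisa2 (-3.03). Ly6a, a surface protein of progenitor and adventitial cells, had an interaction of -5.37 in normoxia and 0.62 in hypoxia. The hypoxia value was 0.18 without the 3 libraries that stood apart and not called there, so the difference came mostly from normoxia.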

How the results depend on the processing

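The interaction in hypoxia kept its direction in all genes called and tested again, over the 26 other settings, except 1 of 1353 with thinned counts and 2 of 1357 without the 3 shallowest libraries. The 2-fold minimum keeps the same log2 values, so its direction was fixed in advance. Other settings reuse all or most of the libraries by which the genes were called, so a kept direction is weak evidence. The 1358 calls became 828 with hypoxia libraries alone, 296 with a 2-fold minimum and 426 without the 3 shallowest libraries, and lay between 1018 (without KO vehicle 3) and 2012 (without WT POVPC 3) when 1 library was left out. The 3037 calls for WT cells became 468 with a 2-fold minimum and 1073 without the 3, and lay between 2260 and 3396 with 1 library left out. The 588 calls for KO cells became 341 with library size alone, 976 with DESeq2, 345 with hypoxia libraries alone and 60 with a 2-fold minimum, and lay between 269 (without KO vehicle 2) and 669, with 374 without KO vehicle 3 and 300 without KO POVPC 3. In normoxia 2344 became 863 with a 2-fold minimum, and 2617 without KO vehicle normoxia 3. For the difference between oxygen levels 2000 became 933 with a 2-fold minimum and 1278 without the 3, and lay between 1748 and 2430 with 1 library left out. Without the 3, the WT POVPC group is 1 library that is assumed to vary like the other groups. Fewer libraries or a minimum fold set the lower counts by construction in part, and for other settings the cause was not tested. Samples with the same replicate number did not deviate together (r from -0.17 to 0.19 over 18 pairs, median -0.01). With the replicate number as a block the calls were 1320 for the interaction, 2986 for WT cells, 549 for KO cells, 2298 in normoxia and 1945 for the oxygen difference. Depth limits genes of a few counts, such as Mcpt2, Vwf and Myl9.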
